A study of Mus musculus with 32 samples.

Results

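The respiratory chain and the ATP synthase of the mitochondrial inner membrane were followed through their nuclear-encoded subunits in trachea and lung of Car6-/- and wild-type mice. The genes were chosen by name: the subunits of complex I (Ndufa, Ndufb, Ndufc, Ndufs and Ndufv genes), complex II (Sdhb, Sdhc and Sdhd), complex III (Uqcr genes and Cyc1), complex IV (Cox4i, Cox5, Cox6, Cox7 and Cox8 genes) and the ATP synthase (Atp5 genes), without the assembly factors. Only Ndufaf genes were left out as assembly factors. Names alone also set the complex, so Ndufa4 and Ndufs5-ps count under complex I and Cox7a2l under complex IV. The muscle isoforms Cox7a1 and Cox8b are outside this set and are given only beside their partners. The array held 98 probes for 79 such genes, of 25697 probes and 16593 gene symbols in all, and none for Sdha. Of the 79 genes, 74 were detected (detection p under 0.01) in at least 6 samples of trachea and 72 in at least 6 samples of lung. Ndufs1, Uqcrfs1, Uqcrq, Cox7b2 and Cox8c were detected in 0 samples of each group, so the array gives no level for these core and isoform genes. Ndufab1 and Atp5k passed through trachea alone. The symbol Ndufs5-ps is that of a pseudogene, which an array probe cannot separate from its parent gene where they share sequence.

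Trachea and lung RNA came from male C57BL/6 mice aged 2 months. Trachea of 6 Car6-/- mice was set against trachea of 8 wild-type mice, and lung of 6 Car6-/- mice against lung of 8 wild-type mice; within each genotype, trachea was also set against lung. Car6-/- mice lack the gene of carbonic anhydrase VI, a secreted enzyme that interconverts carbon dioxide and bicarbonate, and nothing in the labels says how the allele was made. The RNA is of whole tissue, in which fewer cells of a type and less RNA per cell cannot be told apart, and p-values measure the spread between these samples, since the labels do not say more of how they were taken.

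Electrons from NADH enter the chain at complex I and those from succinate at complex II, pass through complex III to cytochrome c and reach oxygen at complex IV, while complexes I, III and IV pump the protons that drive the ATP synthase. Muscle, heart and brown fat are rich in mitochondria, and in brown fat the protein Ucp1 lets protons return without making ATP. Complex IV has subunits with tissue-specific isoforms: in mice Cox6a2, Cox7a1 and Cox8b are the forms of heart and skeletal muscle, Cox4i2 is known as a lung form and Cox6b2 as a testis form, while Cox4i1, Cox6a1, Cox6b1, Cox7a2 and Cox8a are widely expressed.

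The promoters of a complex II gene and of both members of 2 pairs of complex IV isoforms are shown because these genes gave the contrasts described further on: Sdhb, higher in trachea than in lung, Cox6b1 and Cox6b2, which differed in opposite directions between the tissues, and Cox8a and Cox8b, of which the muscle form differed between the tissues by far more than the widely expressed form. Each sequence runs from 250 bases before to 50 bases after the start of the gene on its own strand (RefSeq, GRCm38.p6). Capitals mark matches to the motif GCATGCG of NRF1, CCGGAAG of ETS factors such as GABP, ATGGCGG of YY1 and the E-box CAGCTG bound by myogenic factors, on either strand.
Sdhb (chr4:140961021-140961320, plus strand): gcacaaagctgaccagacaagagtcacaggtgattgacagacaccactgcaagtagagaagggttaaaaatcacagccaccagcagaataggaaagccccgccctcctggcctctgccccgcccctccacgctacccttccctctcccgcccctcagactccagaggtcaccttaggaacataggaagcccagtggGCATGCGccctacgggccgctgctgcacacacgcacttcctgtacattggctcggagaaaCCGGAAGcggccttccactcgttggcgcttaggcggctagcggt
Cox6b1 (chr7:30626065-30626364, minus strand): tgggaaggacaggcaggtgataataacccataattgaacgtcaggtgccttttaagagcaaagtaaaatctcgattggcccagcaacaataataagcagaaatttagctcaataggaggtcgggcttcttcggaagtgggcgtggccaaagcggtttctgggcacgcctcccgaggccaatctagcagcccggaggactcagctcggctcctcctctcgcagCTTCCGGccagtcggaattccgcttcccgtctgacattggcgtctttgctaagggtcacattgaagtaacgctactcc
Cox6b2 (chr7:4753045-4753344, minus strand): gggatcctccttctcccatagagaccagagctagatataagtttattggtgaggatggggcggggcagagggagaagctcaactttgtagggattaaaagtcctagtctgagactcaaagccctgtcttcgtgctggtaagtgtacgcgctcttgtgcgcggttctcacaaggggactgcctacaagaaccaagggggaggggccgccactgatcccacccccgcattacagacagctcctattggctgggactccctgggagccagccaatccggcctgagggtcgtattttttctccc
Cox8a (chr19:7217567-7217866, minus strand): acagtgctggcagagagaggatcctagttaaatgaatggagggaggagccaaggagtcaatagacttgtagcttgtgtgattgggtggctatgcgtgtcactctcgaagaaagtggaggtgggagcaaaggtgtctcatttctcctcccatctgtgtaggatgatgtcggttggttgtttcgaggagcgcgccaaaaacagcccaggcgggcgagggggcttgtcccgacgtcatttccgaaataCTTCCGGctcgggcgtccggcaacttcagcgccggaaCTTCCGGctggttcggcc
Cox8b (chr7:140900397-140900696, minus strand): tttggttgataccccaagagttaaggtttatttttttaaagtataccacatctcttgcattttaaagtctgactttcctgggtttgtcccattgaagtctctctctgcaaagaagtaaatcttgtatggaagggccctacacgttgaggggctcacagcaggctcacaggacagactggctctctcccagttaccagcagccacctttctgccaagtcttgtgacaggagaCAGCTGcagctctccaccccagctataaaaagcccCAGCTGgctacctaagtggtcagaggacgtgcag
The Sdhb window held an NRF1 match that began 54 bases before the start and an ETS match after it, and the Cox6b1 window held 1 ETS match. The Cox8a window held 2 ETS matches and the Cox8b window 2 E-boxes, while these letters were not found in the Cox6b2 window. The windows of Cox6a1 and Cox7a1 were searched too and are not printed. No motif was matched for Cox7a1, another muscle form higher in trachea, while the Cox6a1 window held NRF1 and ETS matches. CpG dinucleotides were at 0.842 of the number that base composition predicts in the Cox8a window and at 0.115 in the Cox8b window.

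Promoters of 63 of the 79 subunit genes were in the RefSeq table, beside 27025 promoters in all. An NRF1 match was present in 14.3% of the subunit promoters and in 3.64% of all promoters. The ETS motif was present in 23.8% against 9.11%, and the YY1 motif in 12.7% against 4.20%. The E-box was present in 6.35% against 16.1%. The median ratio of observed to predicted CpG was 0.795 in subunit promoters and 0.388 in all promoters. The NRF1, ETS and YY1 motifs each hold a CpG, while the E-box holds none. The promoters compared were not matched for CpG, and its part in these shares was not tested. The shares and ratios are descriptions of letters in a window, with no test.

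The arrays detected 11735 to 13139 probes each. Of 4 samples with a second array, 3 were nearest to their own first array, while for wild-type trachea 2 the distance to its own first array was 0.376 (root mean square, log2) and that to wild-type trachea 6 was 0.349. The Car6 probe was detected on 0 of 32 arrays and checks no label. Cartilage markers averaged 7.50 to 9.77 in wild-type tracheas against 5.05 to 5.49 in wild-type lungs, alveolar type 2 markers 6.65 to 7.22 against 12.17 to 12.32, and ciliated cell markers 6.30 to 6.91 against 6.82 to 7.11. Wild-type tracheas also carried transcripts of other tissues: the mean of the skeletal muscle markers was 11.59 to 12.73, that of the brown adipocyte markers 8.68 to 10.20 and that of the thyroid markers 7.93 to 9.17. The brown adipocyte markers hold Cox7a1 and Cox8b, given above as muscle forms, so their mean does not stand for brown fat alone. Levels are normalized log2 intensities, in which a difference of 1 is a doubling, and levels of different probes are not compared.

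The first comparison asked how the chain differs between the conducting airway and the lung of wild-type mice. Most subunits of every complex were higher in trachea, while the lung form Cox4i2 and the testis form Cox6b2 of complex IV were lower. Of 74 subunits tested, 69 were higher and 2 lower in trachea (limma, Benjamini-Hochberg adjusted p under 0.05 over 10345 genes), where 30.1% of all genes were called higher and 38.4% lower. The median change of the subunits was 0.74 (1.67-fold) beside -0.08 for all genes. The groups did not overlap for 55 of the subunits (74.3%) and for 35.9% of all genes, where 68.5% of all genes were called. Those called higher were 32 of 34 in complex I, 3 of 3 in complex II, 7 of 7 in complex III, 11 of 14 in complex IV and 16 of 16 in the ATP synthase. The median change was 0.88 for complex I, 1.05 for complex II, 0.85 for complex III, 0.45 for complex IV and 0.67 for the ATP synthase.

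In complex I, Ndufb9, an accessory subunit of the membrane arm, ranged from 9.00 to 9.89 (median 9.46) in wild-type tracheas and from 7.38 to 8.09 (median 7.73) in wild-type lungs. Every trachea was above every lung, and the change was 1.73 ± 0.13 (SE; 3.32-fold, adjusted p = 1.59e-09). Ndufs3, a core subunit of the arm that reaches into the matrix, ranged from 10.93 to 11.40 (median 11.14) in tracheas and from 9.57 to 9.93 (median 9.76) in lungs, again without overlap. Its change was 1.40 ± 0.09 (2.64-fold). Ndufv1, which binds NADH, was higher by 0.92 ± 0.10 (1.89-fold), and the accessory subunits Ndufc1 and Ndufa5 by 1.37 ± 0.08 and 1.29 ± 0.12. At the other end of the complex, Ndufb11, an accessory subunit of the membrane arm, had a change of -0.15 ± 0.14 (adjusted p = 0.326) and Ndufab1, the mitochondrial acyl carrier protein, one of 0.23 ± 0.12 (adjusted p = 0.103, detected in 3 of 8 tracheas and 2 of 8 lungs). Neither passed the test.

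In complex II, Sdhb, the iron-sulphur subunit, ranged from 10.26 to 11.05 (median 10.82) in wild-type tracheas and from 9.14 to 9.65 (median 9.36) in wild-type lungs. The groups did not overlap, and the change was 1.42 ± 0.11 (2.67-fold, adjusted p = 1.77e-09). Cyc1, the cytochrome c1 that hands electrons from complex III to cytochrome c, ranged from 10.35 to 11.03 (median 10.83) in tracheas and from 8.97 to 9.35 (median 9.07) in lungs. It was higher by 1.70 ± 0.09 (3.24-fold, adjusted p = 1.38e-11). Uqcrc1, a core protein of the same complex, was higher by 1.33 ± 0.10 (2.51-fold). In the ATP synthase, Atp5g1, a gene of the c subunit that forms the rotor ring, ranged from 11.40 to 12.18 (median 12.09) in tracheas and from 9.93 to 10.61 (median 10.27) in lungs. No trachea lay within the range of the lungs, and the change was 1.69 ± 0.12 (3.22-fold). The subunits of the catalytic head differed in size: Atp5a1, the alpha subunit, was higher by 1.39 ± 0.13 (2.61-fold), and Atp5b, the catalytic beta subunit, by 0.23 ± 0.09 (1.17-fold, adjusted p = 0.0309). Atp5b ranged from 13.07 to 13.77 (median 13.58) in tracheas and from 13.16 to 13.44 (median 13.27) in lungs, with overlap. Its call was lost without wild-type lung 4 or 8 or without wild-type trachea 1, 5 or 7 (adjusted p between 0.0513 and 0.0630).

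**Figure D1:**
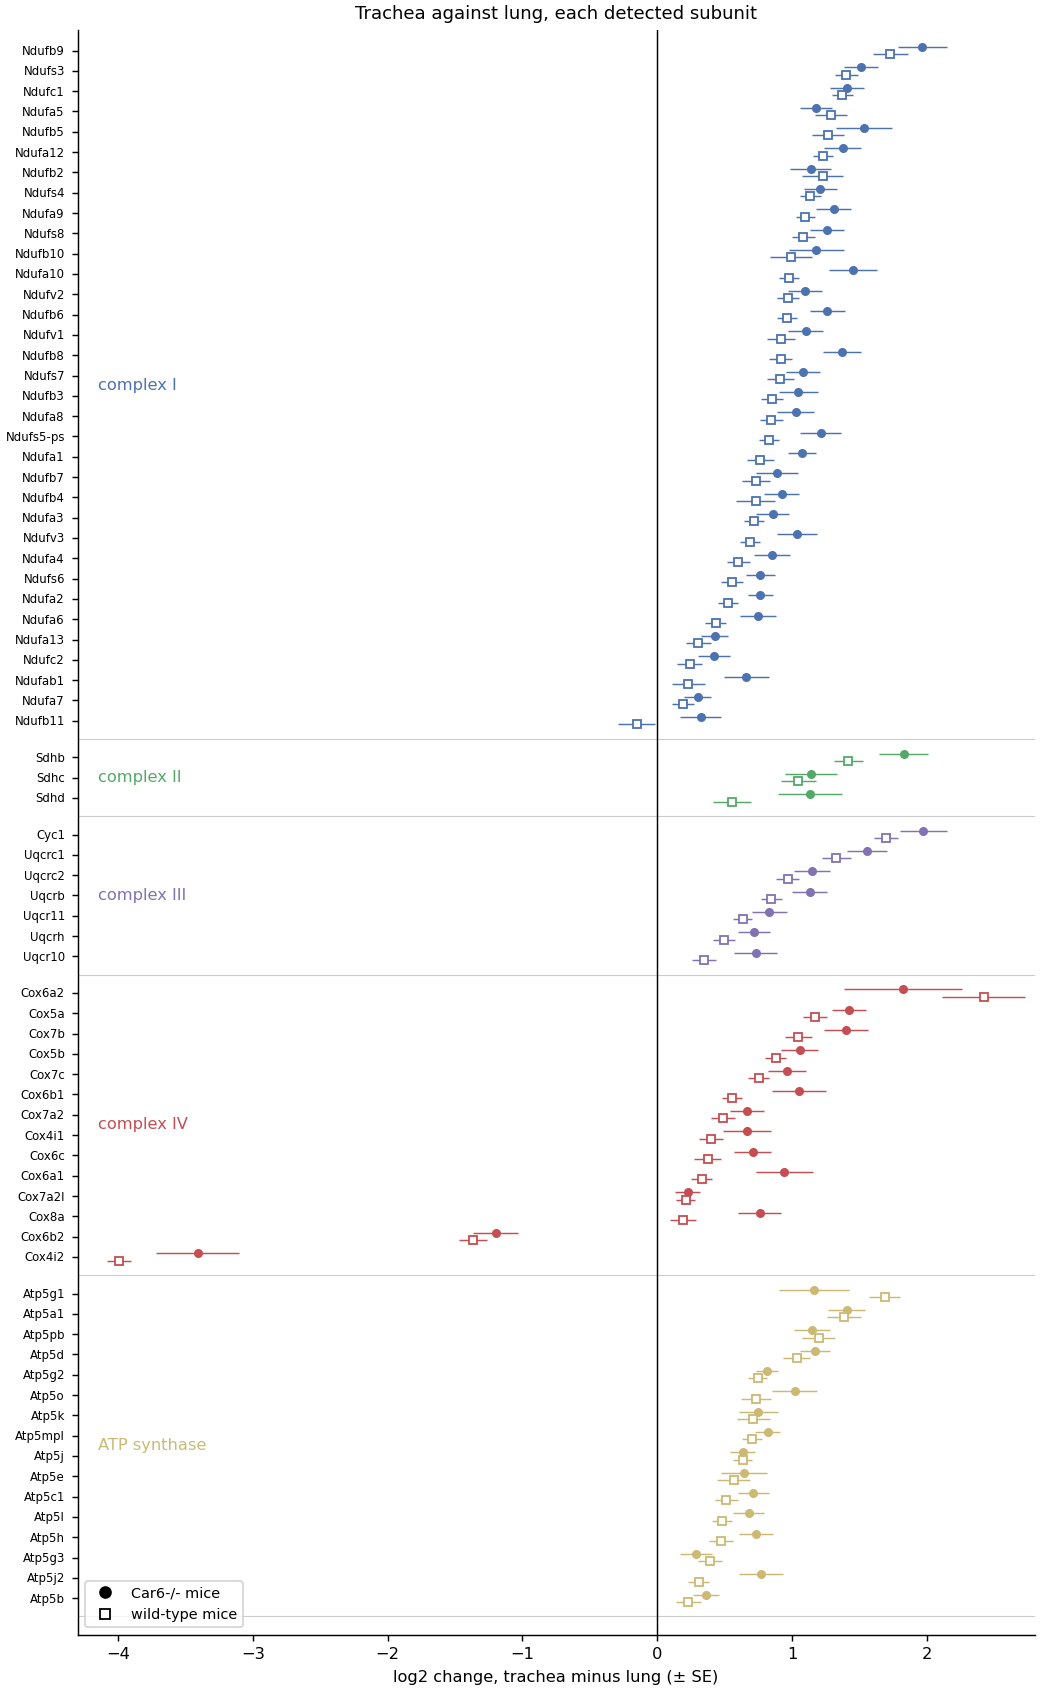
Change of each detected subunit between trachea and lung (log2, with its standard error) by complex, in Car6-/- and in wild-type mice. Points right of 0 are higher in trachea; Cox4i2 and Cox6b2 of complex IV lie left of 0 in both genotypes, and Cox6a2, at 2.42, is farthest right in wild-type mice.

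Complex IV held both the largest rise and both falls between the tissues, and the tissue-restricted isoforms differed by more than their widely expressed partners, in the same direction for subunit VIa and in opposite directions for IV and VIb. Cox6a2, the heart and skeletal muscle form of subunit VIa, ranged from 11.68 to 13.11 (median 12.82) in wild-type tracheas and from 8.97 to 11.47 (median 10.51) in wild-type lungs. It was higher in every trachea than in every lung, by 2.42 ± 0.31 (5.36-fold, adjusted p = 1.57e-06). Its widely expressed partner Cox6a1 ranged from 11.68 to 12.10 (median 11.94) in tracheas and from 11.38 to 11.82 (median 11.53) in lungs, with overlap, and was higher by 0.33 ± 0.08 (1.26-fold). Cox4i2, the lung form of subunit IV, ranged from 4.52 to 5.06 (median 4.74) in tracheas, where 1 of 8 samples detected it, and from 8.54 to 8.99 (median 8.73) in lungs. All lungs were far above all tracheas, and the fitted change was -3.99 ± 0.09 (adjusted p = 7.73e-17). With the undetected tracheas set at the lowest level of a detected probe, Cox4i2 was at least 13.7-fold lower in trachea. Cox4i1, the general form, was higher in trachea by 0.40 ± 0.09 (1.32-fold) with overlapping groups. Cox6b2 ranged from 4.90 to 5.59 (median 5.29) in tracheas, 7 of 8 of which detected it, and from 6.52 to 6.99 (median 6.64) in lungs. Its change was -1.36 ± 0.10 (2.58-fold lower in trachea, adjusted p = 1.66e-09), while Cox6b1 was higher in trachea by 0.56 ± 0.08 (1.47-fold). The other Cox6b1 probe was higher by 0.94 ± 0.08. The Cox6b2 values rest on 1 probe, and the other Cox6b2 probe was detected in 0 samples of each group.

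The muscle forms of subunits VIIa and VIII were also higher in trachea by more than their partners. Cox7a1 ranged from 11.00 to 12.29 (median 12.05) in wild-type tracheas and from 6.84 to 9.87 (median 8.48) in wild-type lungs. The groups lay apart, with a change of 3.62 ± 0.35 (12.3-fold), while Cox7a2 was higher by 0.49 ± 0.09 (1.40-fold). Cox8b ranged from 11.71 to 12.78 (median 12.50) in tracheas and from 7.47 to 9.98 (median 8.54) in lungs. Its change was 3.90 ± 0.29 (14.9-fold). Cox8a ranged from 11.81 to 12.39 (median 12.09) in tracheas and from 11.55 to 12.11 (median 11.96) in lungs, with a change of 0.19 ± 0.10 (adjusted p = 0.0922) that did not pass. Without wild-type trachea 6 it was called (0.23, adjusted p = 0.0431). Cox5a, which has no such partner, was higher by 1.17 ± 0.09 (2.25-fold).

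**Figure D2:**
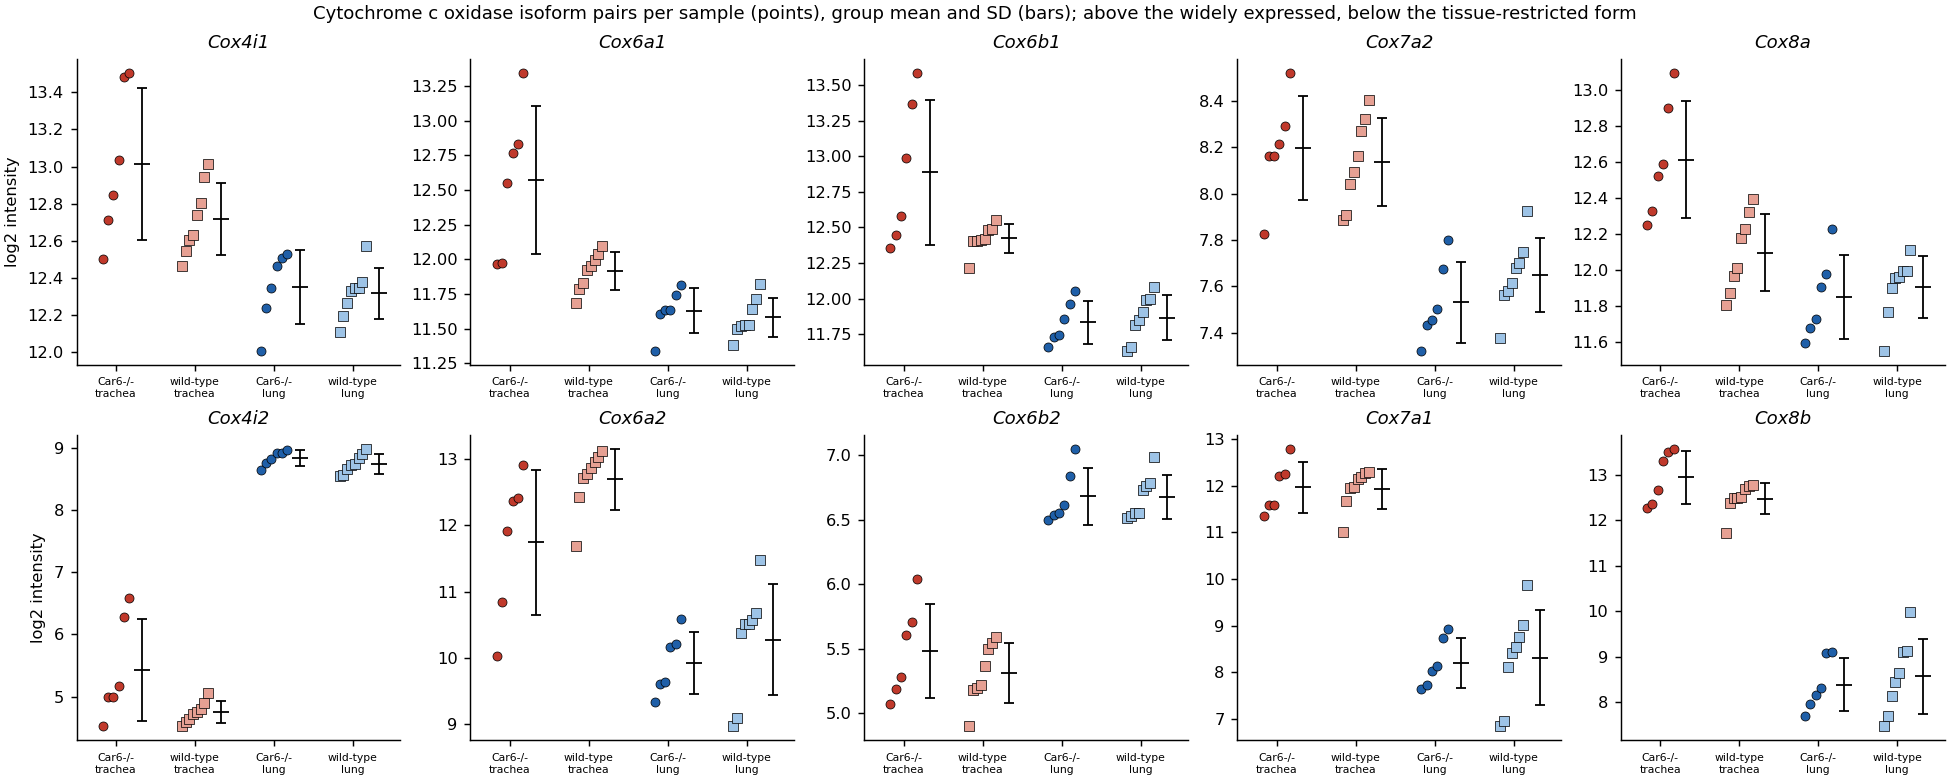
Log2 intensity of the complex IV isoform pairs in each sample of the 4 groups (points), with the group mean and SD (bars). The muscle forms Cox6a2, Cox7a1 and Cox8b are high in trachea, Cox4i2 and Cox6b2 are high in lung, and the widely expressed partners differ less between the tissues.

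Where a gene had several detected probes, some did not move alike. For Atp5j, the coupling factor 6 subunit, one probe had a change of 0.64 between wild-type trachea and lung and the other -0.10. For Ndufv3, an accessory subunit of complex I, the 3 probes gave 0.90, 0.69 and -0.01. For Sdhb they gave 1.44, 1.42 and 0.42, all called higher. In the comparison of genotypes in lung, the probes of Atp5j, Cox6a1, Cox6b1, Ndufa5, Ndufa8 and Ndufv3 differed in sign, with changes between -0.14 and 0.08 and none called; in trachea those of Atp5j (0.36 and -0.15) and Ndufc1 (0.00 and -0.03) did, and in the difference between the tissues those of Atp5j, Ndufa5 and Sdhb (0.41, 0.31 and -0.04 for Sdhb), again with none called.

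The same comparison was made in Car6-/- mice. Of 74 subunits, 69 were higher and 2 lower in trachea, where 21.0% of all genes were called higher and 26.6% lower (47.5% in either direction). When arrays were scaled to a common median instead of quantile normalized, the share of all calls that were higher was 32.8%, against 44.1% with the main setting, and 68 subunits were called higher. The median change of the subunits was 1.03 (2.05-fold) beside -0.05 for all genes, and the groups did not overlap for 67 subunits (90.5%) and for 27.9% of all genes. The median was 1.09 for complex I, 1.14 for complex II, 1.13 for complex III, 0.85 for complex IV and 0.76 for the ATP synthase. Atp5k, a small subunit of the ATP synthase, and Ndufab1 were undetected in every Car6-/- lung and were at least 1.34-fold and at least 1.35-fold higher in Car6-/- trachea, the bound being the lowest level of a detected probe. Since both entered the tests through trachea alone, their direction was favoured by the filter. Over the 72 subunits that passed in both tissues, 67 were called higher and 2 lower in Car6-/- mice, and 68 and 2 in wild-type mice.

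Cyc1 ranged from 10.64 to 11.54 (median 10.97) in Car6-/- tracheas and from 8.96 to 9.15 (median 9.09) in Car6-/- lungs, a change of 1.98 ± 0.17 (3.93-fold, adjusted p = 3.07e-06). Sdhb ranged from 10.52 to 11.50 (median 11.17) in tracheas and from 9.11 to 9.38 (median 9.20) in lungs, a change of 1.83 ± 0.18 (3.55-fold). The groups were apart for both. The accessory complex I subunits Ndufb9, Ndufb5 and Ndufa10 were higher by 1.97 ± 0.18, 1.53 ± 0.21 and 1.45 ± 0.18. Further along the chain Uqcrc1 was higher by 1.56 ± 0.15, Cox5a by 1.43 ± 0.13 and Atp5a1 by 1.41 ± 0.14, while Atp5b was higher by 0.36 ± 0.09. Ndufs3, Ndufc1 and Ndufv1 were higher by 1.51 ± 0.13, 1.41 ± 0.13 and 1.10 ± 0.13.

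Among the complex IV isoforms, Cox6a2 ranged from 10.03 to 12.92 (median 12.14) in Car6-/- tracheas and from 9.34 to 10.59 (median 9.90) in Car6-/- lungs. The lowest trachea, number 2, fell within the range of the lungs, and the change was 1.82 ± 0.44 (3.53-fold). Cox4i2 ranged from 4.53 to 6.59 (median 5.08) in tracheas and from 8.64 to 8.97 (median 8.86) in lungs, a change of -3.41 ± 0.31 (at least 10.1-fold lower with the 1 undetected trachea of 6 set at the lowest level of a detected probe). Cox6b2 was 2.30-fold lower in trachea (-1.20 ± 0.17). Cox8b was higher by 4.56 ± 0.31 (23.5-fold) and Cox7a1 by 3.76 ± 0.28 (13.6-fold). The widely expressed forms passed the test too, with changes of 1.05 ± 0.20 for Cox6b1, 0.94 ± 0.21 for Cox6a1, 0.76 ± 0.16 for Cox8a, 0.67 ± 0.12 for Cox7a2 and 0.66 ± 0.18 for Cox4i1. The other Cox6b1 probe was higher by 1.23 ± 0.16 in these mice. Atp5g3, another gene of the c subunit (adjusted p = 0.0582), Cox7a2l (0.0690) and Ndufb11 (0.100) did not pass.

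Other mitochondrial genes differed between the tissues as well. Of all genes, 21.0% were called higher and 26.6% lower in Car6-/- trachea, and 30.1% and 38.4% in wild-type trachea. In Car6-/- mice those called higher in trachea were 15 of 15 detected genes of the tricarboxylic acid cycle, 54 of 67 of the mitochondrial ribosome, 22 of 29 complex assembly factors, 11 of 14 electron carriers and exchange proteins and 10 of 15 regulators, with 0 called lower in each list. In wild-type mice, 14 of 15 detected genes of the tricarboxylic acid cycle were called higher and 0 lower in trachea, with a median change of 0.92, among them Pdha1 of pyruvate dehydrogenase (1.50 ± 0.08), fumarase Fh1 (1.44 ± 0.09) and citrate synthase Cs (1.53 ± 0.10). Of the mitochondrial ribosome 56 of 67 were higher and 1, Mrpl49, lower (median 0.45), and of the complex assembly factors 21 of 29 were higher and 0 lower (median 0.39), led by Ndufaf5 at 1.25 ± 0.09. Of 14 electron carriers and exchange proteins, 13 were higher and 0 lower (median 0.99), including Gpd2, the mitochondrial glycerol phosphate dehydrogenase (2.64 ± 0.14). Of 15 regulators, 8 were higher, among them Perm1, a muscle regulator of oxidative genes, by 3.98 ± 0.31, the coactivator Ppargc1b by 1.60 ± 0.17 and the receptor Esrra by 0.91 ± 0.08. The 2 lower were Polg, the polymerase of mitochondrial DNA (-0.37 ± 0.09), and Nrf1, a transcription factor of respiratory genes (-0.35 ± 0.13). These 2 and Mrpl49 were singled out after their values were seen.

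Markers of skeletal muscle and brown fat were higher in trachea too, while those of heart were mixed. All 14 skeletal muscle markers were called higher in trachea than in lung, with a median change of 4.70 in Car6-/- mice and 6.80 in wild-type mice. All 6 brown adipocyte markers were called higher as well, with a median of 4.16 in Car6-/- mice and 3.75 in wild-type mice. In wild-type mice Cidea, a lipid droplet protein of brown fat, was higher by 4.87 ± 0.23, and Ucp1, undetected in every wild-type lung, was at least 8.89-fold higher. The brown adipocyte list includes Cox7a1 and Cox8b, which are also muscle forms, so its count and medians do not stand for brown fat alone. Of 7 cardiac muscle markers, 2 were called higher and 0 lower in Car6-/- trachea (median -0.14), and 2 higher and 5 lower in wild-type trachea (median -2.96). The part of these tissues in the subunit changes was not tested.

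Car6-/- lung was set against wild-type lung to ask whether loss of the enzyme alters the chain in whole lung. Of 72 subunits tested, 0 were called (limma, adjusted p under 0.05), where 0.0212% of all genes (2 of 9417) were called. At an unadjusted p under 0.05, 0 subunits were higher and 2 lower (2.78%), beside 454 (4.82%) and 432 (4.59%) of all genes. Changes ran from -0.35 to 0.13 with a median of -0.03 (-0.05 to -0.01 leaving out 1 lung at a time, the smallest in size without wild-type lung 6, the largest without Car6-/- lung 4), beside a median standard error of 0.08. By direction, 19 were positive and 53 negative, so 26.4% of subunits and 48.7% of all genes had a positive change. With arrays scaled to a common median the median was 0.05 for the subunits and 0.05 for all genes, so the lean to negative changes was not found at that setting. The mean level of the subunits was 9.98 ± 0.06 (SD, n = 6) in Car6-/- lungs, from 9.91 to 10.08 with a median of 9.98. It was 10.02 ± 0.07 (SD, n = 8) in wild-type lungs, from 9.92 to 10.11 with a median of 10.01. The ranges overlapped over most of their length.

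The subunits with the smallest p stayed short of the threshold. Ndufb11 ranged from 4.81 to 5.79 (median 5.57; detected in 5 of 6) in Car6-/- lungs and from 5.57 to 6.18 (median 5.75) in wild-type lungs, a change of -0.33 ± 0.13 (adjusted p = 0.426). The Car6-/- values reached below the wild-type range in 3 samples. Atp5j had -0.14 ± 0.07, Uqcrb of complex III -0.18 ± 0.09, Ndufa9 -0.12 ± 0.07 and Ndufb8 -0.11 ± 0.06. On the positive side Atp5e, the epsilon subunit, had 0.13 ± 0.12, Sdhc 0.10 ± 0.09 and Cox4i2 0.09 ± 0.08, none of which passed. Of the core subunits, Cyc1 had -0.03 ± 0.07, Sdhb -0.12 ± 0.08 and Atp5b -0.02 ± 0.06. The lung isoform Cox4i2 ranged from 8.64 to 8.97 (median 8.86) in Car6-/- lungs and from 8.54 to 8.99 (median 8.73) in wild-type lungs and the ranges overlapped.

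Cox6a2, the muscle isoform, varied widely between lungs. It ranged from 9.34 to 10.59 (median 9.90) in Car6-/- lungs and from 8.97 to 11.47 (median 10.51) in wild-type lungs, a change of -0.35 ± 0.33 (adjusted p = 0.817). Wild-type lung 7 was highest and wild-type lungs 2 and 3 were lowest. The mean of 7 cardiac muscle markers ordered the lungs in much the same way, at 11.28 in wild-type lung 7 and at 7.20 and 7.07 in wild-type lungs 2 and 3. Over the groups it ranged from 8.27 to 10.00 (median 8.82) in Car6-/- lungs and from 7.07 to 11.28 (median 9.58) in wild-type lungs. Cox7a1, at 9.87, and Cox8b, at 9.98, were also highest in wild-type lung 7, and Cox7a1 was lowest in wild-type lungs 3 and 2. The mean of the subunits other than Cox4i2, Cox6a2 and Cox6b2 stayed between 9.97 and 10.16 over all 14 lungs. Car6-/- lung 5 and wild-type lung 6 carried skeletal muscle markers, at means of 9.17 and 7.16 where the other lungs had 4.88 to 5.76. Brown adipocyte markers, a list that holds Cox7a1 and Cox8b, averaged 5.80 to 6.62 in Car6-/- lungs and 5.55 to 7.10 in wild-type lungs, and adipocyte markers 4.80 to 5.81 and 5.08 to 6.18. Among wild-type lungs number 7 was highest and number 3 lowest in both. The part of heart, other muscle or fat RNA in these levels was not tested.

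**Figure D3:**
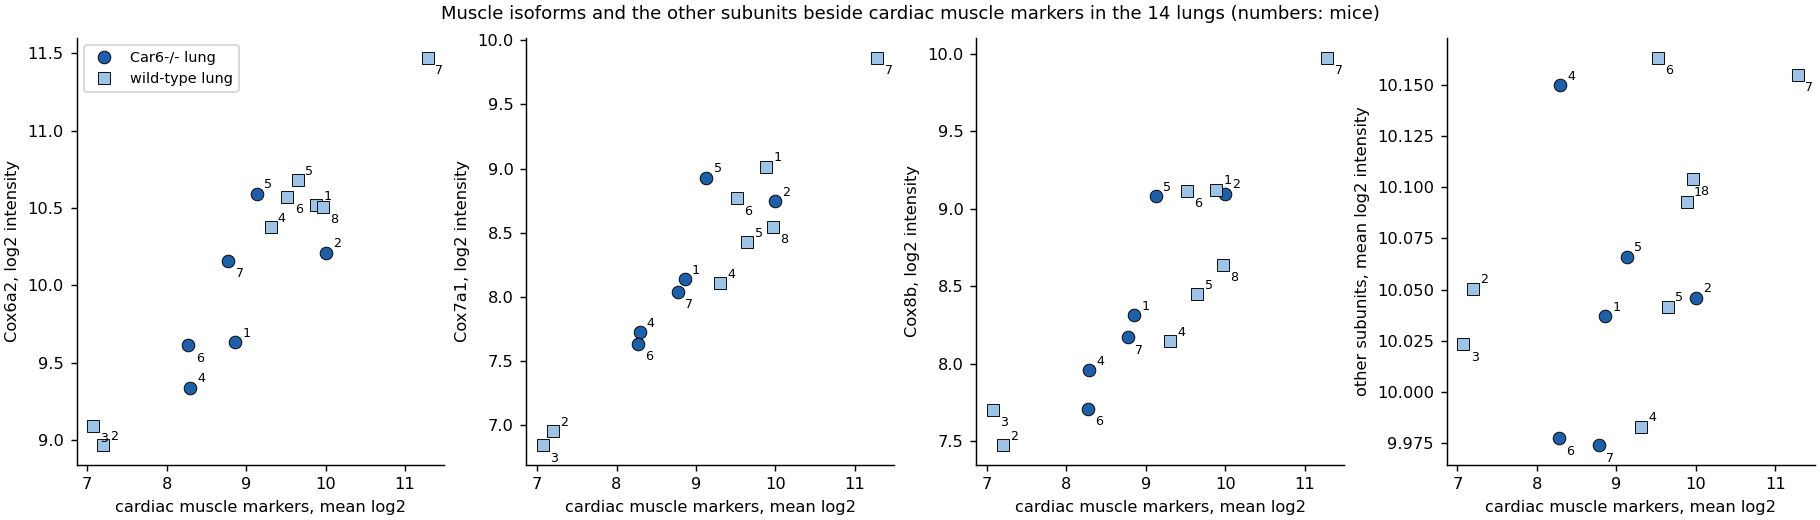
Log2 intensity of Cox6a2, Cox7a1, Cox8b and the mean of the other subunits against the mean log2 intensity of the cardiac muscle markers, 1 point per lung with its mouse number (circles Car6-/-, squares wild type). The isoforms each span more than 2 log2 units across the lungs with wild-type lung 7 highest, while the mean of the other subunits spans 9.97 to 10.16; the vertical axes differ.

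Car6-/- trachea was set against wild-type trachea to ask the same of the conducting airway. Of 74 subunits, 0 were called, where 0% of all genes (0 of 9736) were called. At an unadjusted p under 0.05, 14 subunits were higher (18.9%) and 2 lower (2.70%), beside 906 (9.31%) and 765 (7.86%) of all genes. The direction was mostly upward: 63 subunits had a positive and 11 a negative change (85.1% positive, beside 56.1% of all genes), with a median of 0.17 beside 0.04. Leaving out 1 trachea at a time gave medians of 0.10 without Car6-/- trachea 1 to 0.23 without Car6-/- trachea 4. Positive changes were found in 32 of 34 subunits of complex I, 3 of 3 of complex II, 7 of 7 of complex III, 12 of 14 of complex IV and 9 of 16 of the ATP synthase. The groups did not overlap for 0 subunits, beside 0.236% of all genes.

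Cox8a ranged from 12.25 to 13.09 (median 12.55) in Car6-/- tracheas and from 11.81 to 12.39 (median 12.09) in wild-type tracheas. In Car6-/- mice 4 of 6 tracheas were above every wild-type trachea, and the change was 0.52 ± 0.14 (1.43-fold, adjusted p = 0.150). Cox6a1 ranged from 11.97 to 13.34 (median 12.66) in Car6-/- tracheas and from 11.68 to 12.10 (median 11.94) in wild-type tracheas. Here too 4 of 6 lay above the wild-type range, with number 6 highest, and the change was 0.66 ± 0.19 (1.58-fold, adjusted p = 0.150). Cox6b1 had a change of 0.46 ± 0.18, Ndufab1 of 0.47 ± 0.17, Ndufb6, an accessory complex I subunit, of 0.32 ± 0.12 and Cox4i2 of 0.68 ± 0.27 (adjusted p between 0.197 and 0.227). None of these passed. Cox4i2 was detected in 5 of 6 Car6-/- tracheas and 1 of 8 wild-type tracheas, so it entered the test mainly through the group where it was higher, against a level at background. Ndufab1 was detected in 5 of 6 Car6-/- tracheas and 3 of 8 wild-type tracheas, so the same limit holds for it. Without Car6-/- trachea 4, 4 subunits were called higher: Cox6a1 (0.78 ± 0.18, adjusted p = 0.0254), Cox8a (0.59 ± 0.15, 0.0327), Atp5j2, the f subunit of the ATP synthase (0.50 ± 0.14, 0.0466) and Ndufb6 (0.40 ± 0.11, 0.0478), which is 5.48% of subunits beside 3.83% of all genes called higher. The change of Atp5j2 over all samples was 0.40 ± 0.15 (adjusted p = 0.213). Over the trachea comparison without each other sample in turn, 0 subunits were called.

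Other members pointed down or stayed near 0. Cox6a2 ranged from 10.03 to 12.92 (median 12.14) in Car6-/- tracheas and from 11.68 to 13.11 (median 12.82) in wild-type tracheas, a change of -0.95 ± 0.39 (adjusted p = 0.237). Numbers 2 and 6 of the Car6-/- tracheas, at 10.03 and 10.84, were below every wild-type trachea. Atp5g1 ranged from 10.65 to 12.30 (median 11.45) in Car6-/- tracheas and from 11.40 to 12.18 (median 12.09) in wild-type tracheas, a change of -0.56 ± 0.24 (adjusted p = 0.262), with 3 Car6-/- samples below and 1 above the wild-type range. Of the core subunits, Cox4i1 had 0.30 ± 0.16, Sdhb 0.29 ± 0.18, Cyc1 0.25 ± 0.17, Uqcrc1 0.18 ± 0.16, Ndufv1 0.17 ± 0.14, Cox5a 0.16 ± 0.13, Atp5b 0.11 ± 0.12 and Atp5a1 -0.03 ± 0.16. Cox8b had 0.47 ± 0.23 and Cox7a1 0.03 ± 0.24. None of them passed.

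**Figure D4:**
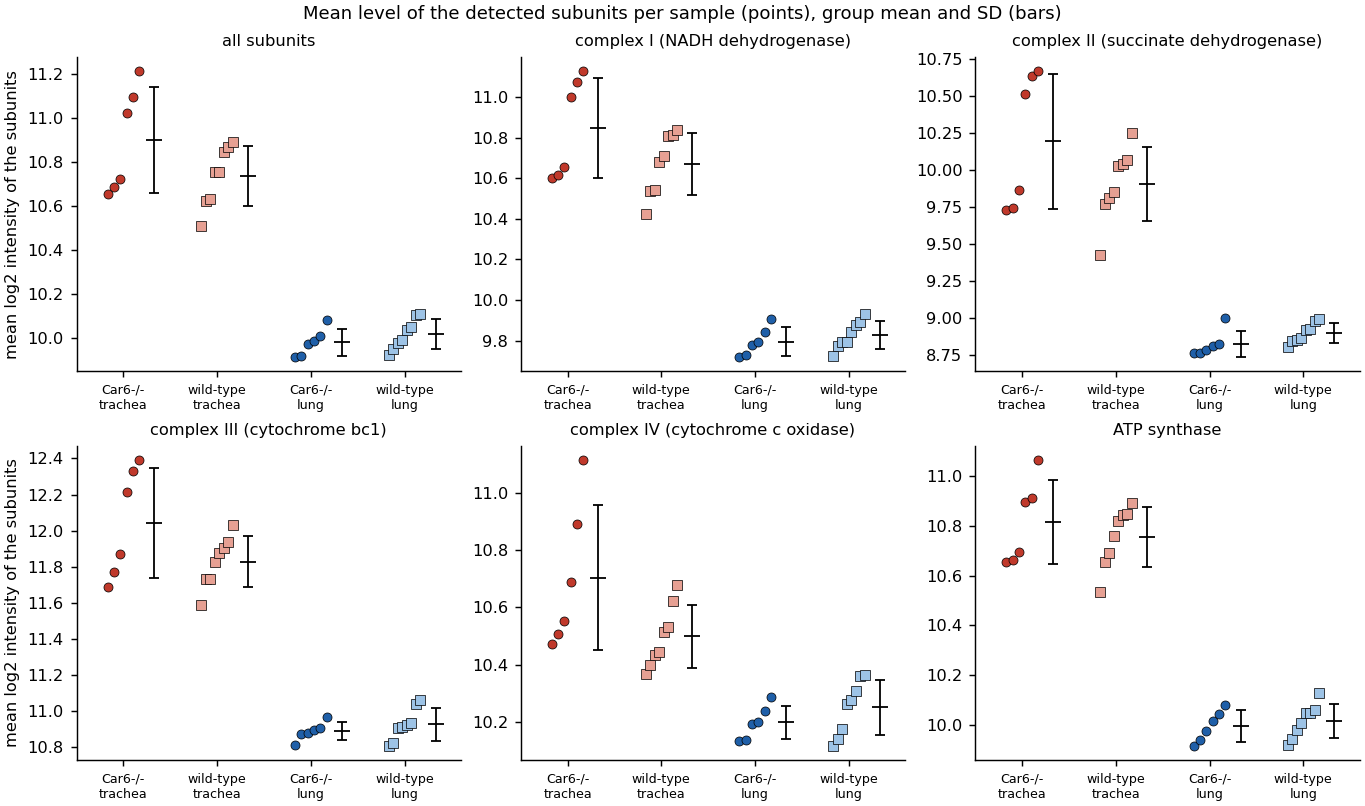
Mean log2 intensity of the subunits of each complex in every sample of Car6-/- and wild-type trachea and lung (points), with the group mean and SD (bars). Tracheas lie above lungs in each panel, Car6-/- tracheas spread more widely than wild-type tracheas, and the lungs of both genotypes overlap.

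The mean level of the subunits was 10.90 ± 0.24 (SD, n = 6) in Car6-/- tracheas, from 10.66 to 11.21 with a median of 10.87. In wild-type tracheas it was 10.73 ± 0.14 (SD, n = 8), from 10.51 to 10.89 with a median of 10.75. Car6-/- tracheas 1, 6 and 7, at 11.21, 11.10 and 11.02, were above every wild-type trachea, while numbers 2, 4 and 5, at 10.72, 10.66 and 10.69, were within their range. Ucp1 was at 11.77, 12.02 and 11.68 in numbers 1, 6 and 7, at 11.25 in number 2, and at 7.78 and 8.46 in numbers 4 and 5, where wild-type tracheas had 6.06 to 8.83. Its change was 2.33 ± 0.69 (adjusted p = 0.150), and that of Cidea 1.49 ± 0.44. The adipocyte markers averaged 6.76 to 9.00 in Car6-/- tracheas and 6.73 to 7.24 in wild-type tracheas, and 7 of 7 had positive changes, as had 6 of 6 brown adipocyte markers. The brown adipocyte list includes Cox7a1 and Cox8b. Its smallest change was 0.03, for Cox7a1, which changed sign in 5 of 14 fits that left out 1 sample.

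Markers of other tissues varied among these tracheas too. The skeletal muscle markers averaged 6.37 to 11.74 in Car6-/- tracheas and 11.59 to 12.73 in wild-type tracheas, with 14 of 14 changes negative (median -1.86). Number 1 was lowest in them, at 6.37, and number 2 next, at 9.44. Number 1 also carried cardiac muscle markers, at a mean of 12.91 with Myh6 at 12.82, and number 7 had 10.55, against 7.18 to 7.61 in wild-type tracheas. Cox6a2 was 12.92 in number 1, the highest of the Car6-/- tracheas. Number 2 carried alveolar type 2 markers at 10.68 and B cell markers at 10.25, against 6.65 to 7.22 and 5.41 to 5.95 in wild-type tracheas, and it had the highest Cox4i2 level, at 6.59. Number 1, with the highest mean of the subunits, carried alveolar type 2 markers at 10.22 and B cell markers at 8.28, and number 5 B cell markers at 7.27. Thyroid markers averaged 4.53 to 9.00 in Car6-/- tracheas and 7.93 to 9.17 in wild-type tracheas. Without Car6-/- tracheas 1, 2 and 6, the median change of the subunits was 0.05 with 0 called, and without 1 and 2 it was 0.15 with 0 called. Numbers 1 and 6 had the highest means of the subunits, so leaving them out favoured a lower median. The part of these tissues in the subunit levels was not tested.

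**Figure D5:**
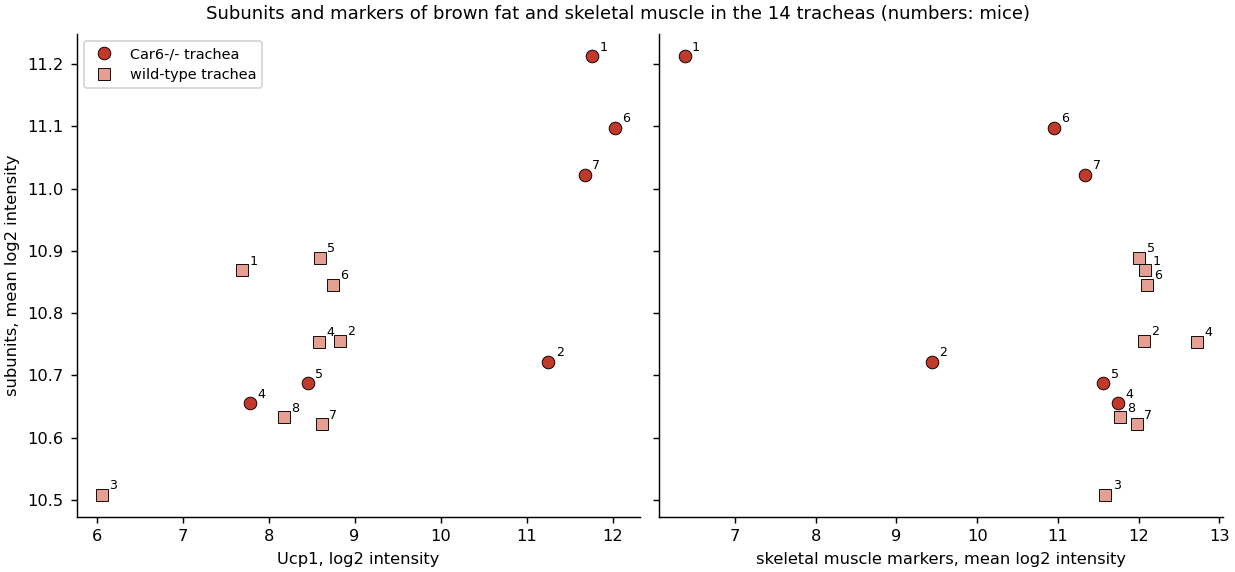
Mean log2 intensity of the subunits (vertical) against the log2 intensity of Ucp1 (left) and the mean log2 intensity of the skeletal muscle markers (right), 1 point per trachea with its mouse number (circles Car6-/-, squares wild type). Car6-/- tracheas 1, 6 and 7 are above all wild-type tracheas in both the subunits and Ucp1, Car6-/- trachea 2 in Ucp1 alone, and Car6-/- trachea 1 is lowest in skeletal muscle markers.

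Whether the genotype effect in trachea differed from that in lung was tested in 1 model of all 4 groups. Of 74 subunits 0 were called, where 0% of all genes (0 of 10345) were called. At an unadjusted p under 0.05, 16 subunits were positive (21.6%) and 0 negative, beside 817 (7.90%) and 619 (5.98%) of all genes. The difference was positive for 67 subunits and negative for 7 (90.5% positive, beside 56.4% of all genes). Its median was 0.20 beside 0.04 for all genes, and 0.13 to 0.25 leaving out 1 sample at a time (lowest without Car6-/- trachea 1). The difference was 0.57 ± 0.18 for Cox8a (adjusted p = 0.188), 0.61 ± 0.21 for Cox6a1, 0.45 ± 0.16 for Ndufb8, 0.46 ± 0.17 for Atp5j2 and 0.48 ± 0.18 for Ndufa10. On the other side Atp5g1 had -0.53 ± 0.27 and Cox6a2 -0.60 ± 0.54. Without Car6-/- trachea 4, 5 subunits were called, namely Atp5j2 (0.57), Cox6a1 (0.73), Cox8a (0.64), Ndufb8 (0.53) and Ndufs5-ps (0.47), which is 6.76% of subunits beside 3.71% of all genes called positive. Without Car6-/- trachea 5, Cox6a1 was called (0.73 ± 0.19, adjusted p = 0.0429), or 1.35% of subunits beside 1.19% of all genes. This comparison and the one above share the trachea samples.

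Of the other mitochondrial genes 0 were called in either genotype comparison. In trachea, 12 of 15 tricarboxylic acid cycle genes had positive changes (median 0.18), with Idh3b, a subunit of isocitrate dehydrogenase, at 0.89 ± 0.22 and Pdhb at 0.62 ± 0.23 (adjusted p = 0.150 and 0.198). Positive changes were found in 50 of 67 mitochondrial ribosome genes (median 0.07), 19 of 29 assembly factors (median 0.07), 11 of 15 regulators (median 0.11) and 7 of 14 carriers (median 0.04). Of all genes tested in trachea, 56.1% had a positive change, with a median of 0.04. Ckmt2, the mitochondrial creatine kinase of muscle, had -1.65 ± 0.63, Vdac1, the outer membrane channel, -0.77 ± 0.20 and Perm1 -1.11 ± 0.41, while Ppargc1b had 0.63 ± 0.26. In lung, 2 of 15 tricarboxylic acid cycle genes (median -0.05), 40 of 67 mitochondrial ribosome genes (median 0.01), 15 of 29 assembly factors (median 0.00), 4 of 13 regulators (median -0.05) and 5 of 14 carriers (median -0.04) had positive changes. Of all genes tested in lung, 48.7% had a positive change, with a median of -0.003.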

How the data were processed

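Illumina bead arrays were run on trachea and lung RNA of 28 samples (150 ng of total RNA each, per the labels). The authors deposited 1 table of linear probe intensity, not background-corrected, with a detection p-value per probe and array, per the file headers. They also deposited a log2 table, which recomputation matched within 0.005 as log2 intensity quantile normalized within each tissue; it served as an alternative. The sources used here name neither the scanner software nor the chip an array was on.

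From the intensities, background was corrected with limma 3.58.1 in R 4.3.3 (nec with the detection p, offset 16), arrays were quantile normalized over all 32, and values were put on the log2 scale. The 2 arrays of each of 4 samples were averaged. A gene entered a comparison with a detection p under 0.01 in at least 6 samples of a tissue compared and was represented by its probe with the highest mean; 23978 probes carried 1 gene symbol, 0 several and 1719 none. Linear models (lmFit, eBayes) were fitted over all genes of a comparison, and a Benjamini-Hochberg adjusted p under 0.05 made a call. Every adjusted p in the text is from these limma fits. The fits were tested on simulated data. The number of arrays limits the precision.

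Genes named are the called subunits with the largest changes (up to 10 per direction and comparison), the 5 per direction with the smallest p where fewer than 10 were called, core subunits, complex IV isoform pairs, subunits whose probes differed in sign, and up to 4 genes per other list; from these the text names a part. The members and the 14 lists (5 of mitochondrial genes, 9 of cell markers) were chosen with earlier results of these data known. Alternatives covered background, normalization, the detection filter, single probes, second arrays, array weights, the replicate number as a block and samples left out. Replicate numbers were not used as pairs in the main fits, since the labels do not tie them to 1 animal. Deviations of same-numbered trachea and lung correlated at -0.11 to 0.10 in Car6-/- and -0.14 to 0.10 in wild-type mice. Those of same-numbered Car6-/- and wild-type samples correlated at -0.20 to 0.55 in trachea (over 0.1 in 3 of 6) and -0.30 to -0.03 in lung. Such correlations cannot show whether 1 animal gave both samples.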

Additional observations from a re-analysis of the deposited data

Results flagged for a closer look

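Single samples lay apart from the rest of their group (Dixon's test at the 95% level) in 10 of 184 groups tested, where chance gives about 1 in 20. Of these, 7 were low values of wild-type trachea 3: Atp5g1 at 11.40, Cox6b1 at 12.21, Cox8b at 11.71, Cyc1 at 10.35, Ndufa8 at 10.77, Ndufc1 at 11.48 and Ndufv1 at 11.28. The same trachea had the lowest mean of the subunits, 10.51, and the lowest Ucp1 level, 6.06, of the wild-type tracheas. Ndufb11 was low in Car6-/- lung 2, at 4.81, and high in Car6-/- trachea 1, at 6.10. The mean of complex II was high in Car6-/- lung 4, at 9.00. No cause of these values was tested.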

How the results depend on the processing

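Between the tissues, 67 to 81 subunits were called higher in Car6-/- mice and 66 to 82 in wild-type mice under the alternatives run, the highest counts being of single probes. The medians were 0.86 to 1.09 in Car6-/- mice and 0.69 to 0.77 in wild-type mice. The lowest, 0.86, came without Car6-/- trachea 1, 2 and 6. When detection in every sample was required, 1 subunit was called lower in Car6-/- mice and 0 in wild-type mice, since Cox4i2 and Cox6b2 fail that filter in whole or part. In the genotype comparisons 0 subunits were called under every alternative other than leaving out 1 sample, which gave 0 to 4 called higher in trachea and 0 to 5 in the difference between tissues. The median in lung was 0.047 with median scaling, which moved the median of all genes to 0.05 as well. Median scaling also moved the median of all genes to -0.16 between the tissues in both genotypes, while the subunits' medians were 0.93 in Car6-/- mice and 0.75 in wild-type mice. With the replicate block, 68 subunits were called higher and 2 lower between the tissues in Car6-/- mice and 67 and 2 in wild-type mice, no call of a named subunit changed, and the medians of the genotype changes were 0.13 in trachea and -0.03 in lung.

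Changes that passed no test changed sign as follows, and the cause was not tested. With median scaling, lung values were 0.075 for Ndufv1, 0.037 for Uqcrc1, 0.036 for Cyc1, 0.015 for Atp5a1, 0.083 for Atp5b, 0.046 for Cox6b1, 0.034 for Cox8a, 0.048 for Ndufa8 and 0.060 for Ndufv3, trachea values were 0.0029 for Atp5a1 and -0.012 for Ndufc1, and differences -0.012 for Atp5a1 and -0.048 for Atp5b. With first arrays alone Cox6b2 had -0.010 in lung and Atp5j a difference of 0.0026. With the replicate block Cox6b2 had -0.00089 in lung, and Cox7a1 -0.17 and Ndufc1 -0.074 in trachea. With array weights Cox6b2 had -0.0050 in lung. Without Car6-/- trachea 1, 2 and 6, trachea values were -0.021 for Cox6b2, -0.14 for Cox7a1 and -0.072 for Ndufc1, and differences 0.079 for Ndufb2, -0.00035 for Cox4i1, -0.0054 for Cox4i2, -0.028 for Cox6b2, -0.028 for Cox7a1 and 0.0027 for Atp5j. Without 1 and 2 alone, Atp5a1 had 0.027 and Cox7a1 -0.027 in trachea and Ndufb2 a difference of 0.042.

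Leaving out 1 sample at a time, signs changed in lung for Atp5a1 (-0.087 to 0.0074), Cox4i1 (-0.0038 to 0.10), Cox6b1 (-0.076 to 0.0030), Cox6b2 (-0.068 to 0.051), Cox7a1 (-0.32 to 0.11), Cox8b (-0.35 to 0.0098), Cyc1 (-0.051 to 0.0027), Ndufv1 (-0.050 to 0.022) and Ndufv3 (-0.075 to 0.018). They changed in trachea for Atp5a1 (-0.12 to 0.031), Cox7a1 (-0.14 to 0.15), Cox7a2 (-0.0052 to 0.13) and Ndufc1 (-0.063 to 0.070), and in the difference for Atp5a1 (-0.072 to 0.083), Atp5j (-0.054 to 0.031), Cox7a1 (-0.079 to 0.35) and Ndufb2 (-0.19 to 0.016). Levels near background, such as those of Ndufb11, Ndufab1 and Cox4i2 in trachea, limit what the arrays can show.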
